A study of Mus musculus with 6 samples.

Results

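The genes examined were 9 of the 24060 genes in the count table, chosen by symbol. They comprised the zinc finger transcription factor genes Zic1, Zic2, Zic4 and Zic5, the hedgehog co-receptor gene Boc, the serotonin transporter gene Slc6a4, the vesicular monoamine transporter gene Slc18a2, the monoamine oxidase gene Maoa and the serotonin receptor gene Htr1b. RGCs, the neurons that send the axons of the optic nerve, were purified from C57BL/6 mice at the embryonic age E18 and the postnatal age P5, between which axon growth by these cells declines, and their RNA was sequenced. There were 3 libraries at E18, numbered 1, 3 and 4, and 3 at P5, numbered 6, 8 and 9. No treatment, allele or other agent is named for the mice of either age, and it is not stated how many animals gave a library or whether the libraries came from separate litters, so that p-values measure the spread between these libraries. Retinas were dissociated with papain, macrophages were removed with antibodies, and RGCs were held on dishes by an antibody against Thy1 (CD90), a surface protein abundant on these cells.

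In the mouse most RGC axons cross the midline at the optic chiasm, and a minority from the ventrotemporal retina stays on the same side. These ipsilateral RGCs are defined by Zic2, which directs the axon away from the midline through the guidance receptor EphB1, and Boc, which binds Sonic hedgehog, marks the same cells. They also carry the serotonin transporter for a short time around birth. RGCs do not make serotonin in quantity but take it up, the vesicular transporter can load it into vesicles, monoamine oxidase A breaks it down, and the 1B receptor on RGC terminals lowers transmitter release. Excess serotonin in mice that lack Maoa or Slc6a4 is known to disturb the sorting of ipsilateral and contralateral axon terminals, which takes place in the first postnatal days.

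Reads counted on genes summed to between 81213639 and 114512853 per library. RGC genes were abundant in all 6 libraries, with 15 of them summing to 11093 to 12663 CPM (the gene's count relative to the TMM-scaled size of its library) at E18 and 11049 to 11951 CPM at P5. The E18 libraries were not alike in transcripts of other cells. Tfap2b, an amacrine cell factor, stood at 47.5 and 119 CPM in E18 replicates 1 and 3 and at 1.62 CPM in E18 replicate 4, against 1.02 to 1.55 CPM at P5. Of 11 amacrine genes 9 were tested, of which 5 were called higher at E18 (55.6%, against 20.8% of all genes tested). None was lower and 4 did not pass. Gad2 (9.48, 11.1 and 4.13 CPM in E18 replicates 1, 3 and 4, 8.01 to 13.2 CPM at P5) was among those not called. So was Slc6a9 (6.74, 6.95 and 7.68 CPM, and 7.67 to 9.42 CPM at P5). The summed level of 11 retinal progenitor genes was 172, 105 and 29.5 CPM in E18 replicates 1, 3 and 4 and 21.0 to 28.3 CPM at P5. Of these 11 genes, 6 were called higher at E18 (54.5%, against 20.8% of all genes tested). None was lower and 5 did not pass. Sox2 was at 45.7, 69.3 and 0.950 CPM in E18 replicates 1, 3 and 4, most of the sum in replicate 3. The largest part in E18 replicate 4 and at P5 was Dll1, which was not called, at 17.9 CPM and 9.89 to 17.5 CPM. The summed level of 12 genes of dividing cells was 350.2, 143 and 89.6 CPM at E18 and 68.7 to 87.9 CPM at P5. Thy1 itself, the protein used for purification, was lower at E18, at 212, 217 and 312 CPM against 469 to 690.1 CPM at P5.

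Of the 9 genes, all of which passed the filter on low counts, 5 passed the test between the ages (adjusted p under 0.05 over all 16449 genes tested, edgeR quasi-likelihood test with Benjamini-Hochberg adjustment). This was 55.6% of them, where 43.4% of all genes tested were called. Zic1 and Slc18a2 were higher at E18 (22.2%, against 20.8% of all genes), and Htr1b, Maoa and Boc were lower at E18 (33.3%, against 22.5%). The ages did not overlap for the same number of genes, 55.6% of the 9 against 56.1% of all genes tested. These shares were close to the background, so the genes are described one by one. Their median log2 fold change, E18 over P5, was 0.13, and that of all genes tested was 0.00. Leaving out E18 replicates 1 and 3, which carried the most Tfap2b, left 1 library at E18 that had to be assumed to vary like the P5 libraries. The test then called 3 of the 9 genes, Zic1, Maoa and Boc, and 1633 genes in all in place of 7135.

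**Figure D1:**
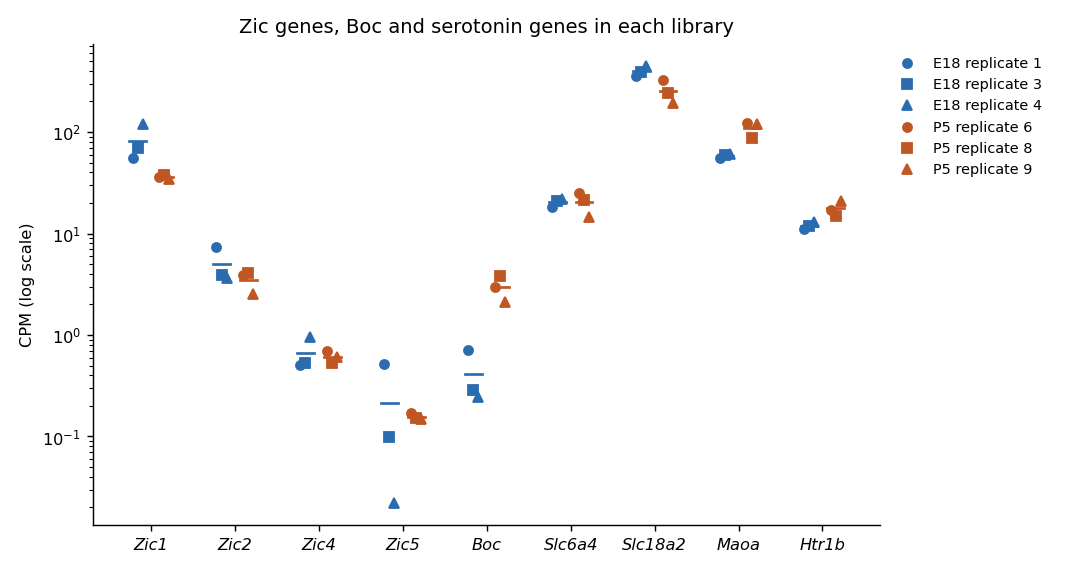
Level of the 9 genes in each of the 6 libraries, in CPM on a log scale, with E18 in blue, P5 in orange, a marker shape for each replicate and a bar at the mean of each age. The ages are apart for Zic1, Boc, Slc18a2, Maoa and Htr1b and overlap for Zic2, Zic4, Zic5 and Slc6a4, and Zic5 spreads from 0.0221 to 0.518 CPM within E18.

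The Zic genes lie in head-to-head pairs. Zic1 (Entrez 22771, chr9:91358058-91365810, minus strand, 4 exons, mm10) and Zic4 (Entrez 22774, chr9:91362413-91389348, plus strand, 5 exons) overlap by 3398 bases, of which 60 are exonic in both, whereas Zic5 (Entrez 65100, chr14:122456795-122465677, minus strand, 2 exons) and Zic2 (Entrez 22772, chr14:122475435-122479852, plus strand, 3 exons) are 9757 bases apart. No 100-base stretch of the annotated transcripts of any of the 4 genes occurred in a transcript of another, so reads of that length from one of them would not match a second along their whole length.

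Zic2, which defines ipsilateral RGCs, was counted 611, 440 and 328 times in E18 replicates 1, 3 and 4, or 7.37, 3.92 and 3.62 CPM. At P5 it was counted 343, 404 and 239 times in replicates 6, 8 and 9, or 3.87, 4.10 and 2.54 CPM. Only E18 replicate 1 lay above all P5 libraries, and the other E18 libraries fell within their range. The means of 4.97 ± 2.08 CPM (SD, n = 3) and 3.50 ± 0.843 CPM (SD, n = 3) gave a log2 fold change of 0.50 ± 0.31 (SE) with a 95% interval of −0.20 to 1.20 (adjusted p = 0.217, edgeR quasi-likelihood test). Without E18 replicate 1 the log2 fold change was 0.11. E18 replicate 1 also held the highest sums of progenitor and dividing cell genes, and their part in the Zic2 level was not tested. In RNA from a pool of cells, fewer cells that express a gene and less RNA in each of them cannot be told apart, here or for any gene below.

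Zic5, the neighbour of Zic2 and like it a zinc finger factor of early neural tissue, was close to the limit of detection, with 43, 11 and 2 counts at E18 and 15, 15 and 14 counts at P5. The 3 P5 libraries were nearly equal, and the E18 libraries lay on both sides of them in the order of their progenitor sums. The log2 fold change was 0.40 ± 0.84 (SE), with an interval of −1.50 to 2.30 (adjusted p = 0.721, edgeR quasi-likelihood test), and turned to −1.31 without E18 replicate 1 and to −2.74 without E18 replicates 1 and 3. The ratio of Zic2 to Zic5, each per kilobase of transcript, was 27.8, 78.1 and 320.4 at E18 and 44.7, 52.6 and 33.4 at P5, and the ages overlapped.

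Zic1, a factor of early neural and cerebellar development, was the most abundant of the 4 Zic genes per kilobase of transcript at both ages. Its level in E18 replicates 1, 3 and 4 was 55.3, 70.2 and 120.1 CPM, from 4589, 7870 and 10876 counts, and in P5 replicates 6, 8 and 9 it was 35.8, 38.0 and 34.3 CPM, from 3172, 3744 and 3229 counts. Every E18 library lay above every P5 library, and the spread at E18 was far wider than at P5. The means were 81.9 ± 33.9 CPM and 36.0 ± 1.87 CPM (SD, n = 3 each). Zic1 was 2.27-fold higher at E18, with a log2 fold change of 1.18 ± 0.24 (SE) and an interval of 0.63 to 1.74 (adjusted p = 0.00571, edgeR quasi-likelihood test). It passed the test whichever library was left out, with a log2 fold change of 0.80 without E18 replicate 4 as the smallest. Its level was highest in E18 replicate 4, the E18 library with the least Tfap2b and the lowest progenitor and dividing cell sums. Without E18 replicates 1 and 3 the log2 fold change was 1.75. That fit kept only the E18 library where Zic1 was highest, so a larger value was fixed in advance.

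Zic4, which starts from the same locus as Zic1 on the opposite strand, was not called. It was counted 42, 60 and 86 times at E18 and 61, 52 and 57 times at P5, or 0.506, 0.535 and 0.950 CPM against 0.688, 0.528 and 0.606 CPM. The ages overlapped, although E18 replicate 4 was the highest library for Zic4 as it was for Zic1. The log2 fold change was 0.13 ± 0.32 (SE), with an interval of −0.61 to 0.86 (adjusted p = 0.772, edgeR quasi-likelihood test), and −0.22 without E18 replicate 4. Per kilobase of transcript, Zic1 exceeded Zic4 98.5-, 118- and 114-fold at E18 and 46.9-, 64.9- and 51.1-fold at P5. The ratio was higher in all 3 E18 libraries, with means of 110.3 ± 10.4 and 54.3 ± 9.44 (SD, n = 3 each), and the exact two-sided permutation test gave p = 0.1, the smallest that 3 libraries against 3 allow (0.16 after Benjamini-Hochberg adjustment over the 8 ratios computed). The size of the ratio depends on the gene model, and with all annotated exons as the lengths the means were 222 ± 20.9 at E18 and 109 ± 19.0 at P5. Whether the counting used strand is not stated, so it is not known how reads on the 60 exonic bases the genes share were counted.

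**Figure D2:**
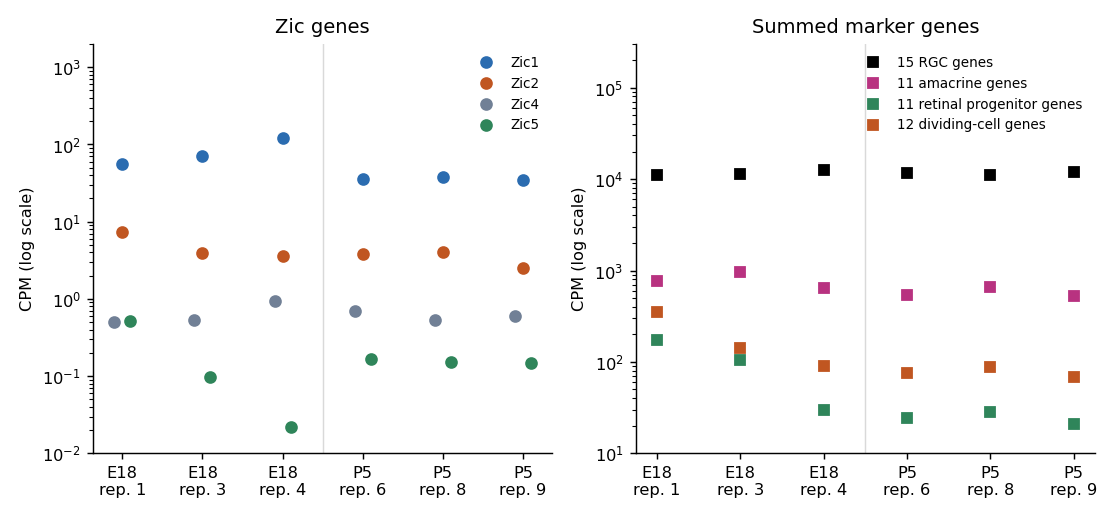
Left, the level of Zic1, Zic2, Zic4 and Zic5 in each library, and right, the summed level of the RGC, amacrine, progenitor and dividing cell genes in the same libraries, both in CPM on a log scale. Zic5 is highest in E18 replicate 1 (0.518 CPM) and lowest in E18 replicate 4 (0.0221 CPM), as is the progenitor sum among the E18 libraries (172 and 29.5 CPM), whereas Zic1 is highest in E18 replicate 4 (120.1 CPM), and the RGC sum lies between 11049 and 12663 CPM in all 6.

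Boc (Entrez 117606, chr16:44485049-44558897, minus strand, 19 exons) encodes a membrane co-receptor through which Sonic hedgehog repels ipsilateral axons at the chiasm. It was counted 59, 32 and 22 times in E18 replicates 1, 3 and 4, or 0.711, 0.285 and 0.243 CPM, and 264, 372 and 197 times in P5 replicates 6, 8 and 9, or 2.98, 3.78 and 2.09 CPM. Every E18 library lay below every P5 library. In CPM, the gap between the ages was wider than the spread within E18 and narrower than that within P5. The means were 0.413 ± 0.259 CPM and 2.95 ± 0.843 CPM (SD, n = 3 each). Boc was 7.19-fold higher at P5, with a log2 fold change of −2.85 ± 0.42 (SE) and an interval of −3.79 to −1.90 (adjusted p = 0.00154, edgeR quasi-likelihood test). It passed the test under every setting tried, including all 6 that left out 1 library. Of the 3 E18 libraries, Boc was highest in replicate 1, that with the most progenitor transcripts.

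Of the 12 other hedgehog pathway genes, 9 were higher at E18, none was lower and 3 did not pass the test (median log2 fold change 0.86). Cdon, its close relative and fellow co-receptor, had a log2 fold change of 0.81 (adjusted p = 0.00547, edgeR quasi-likelihood test). Its levels were 49.6, 48.0 and 45.0 CPM at E18 and 26.2, 34.3 and 20.9 CPM at P5. The ratio of Boc to Cdon per kilobase was 0.0232, 0.00964 and 0.00875 at E18 and 0.184, 0.178 and 0.162 at P5, without overlap (exact two-sided permutation test, p = 0.1, 0.16 after adjustment over the 8 ratios). Also called higher were the signal transducer Smo (log2 fold change 1.66), the co-receptor Gas1 (1.43), the transcription factors Gli1 (4.35), Gli2 (1.70) and Gli3 (3.43), their inhibitor Sufu (0.56) and Disp1 (0.78), which releases the ligand. The calls of Gli1, Gli3 and Gas1 were lost without E18 replicate 1, P5 replicate 6 or P5 replicate 9, and that of Gli2 without any of these or P5 replicate 8. The call of Sufu was lost without any library but P5 replicate 8. Gli3 stood at 5.87 CPM in E18 replicate 1, against 1.24 and 0.243 CPM in E18 replicates 3 and 4. Without E18 replicate 1 the log2 fold changes were 2.0 for Gli1, 0.98 for Gli2, 1.73 for Gli3 and 0.73 for Gas1. Shh, the ligand that RGCs make, was at 30.8, 28.1 and 34.9 CPM at E18 and 30.9, 35.1 and 28.7 CPM at P5, the receptor Ptch1 had a log2 fold change of 0.19, and the inhibitor Hhip one of −0.09.

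Ephb1, the guidance receptor through which Zic2 acts, was measured at 44.3, 44.3 and 45.6 CPM at E18 and at 39.3, 36.1 and 42.4 CPM at P5. All E18 libraries lay above all P5 libraries, but the log2 fold change of 0.19 ± 0.10 (SE) did not pass the test (adjusted p = 0.140, edgeR quasi-likelihood test). Foxd1, a factor of the ventrotemporal retina upstream of Zic2, was counted 238, 162 and 136 times at E18 and 45, 75 and 22 times at P5, with a log2 fold change of 1.94 ± 0.44 (SE, adjusted p = 0.00909, edgeR quasi-likelihood test). Ccnd2, a cyclin of the progenitors that give rise to ipsilateral cells, had 45, 15 and 5 counts at E18 and 1 to 4 counts at P5 and was too low to be tested.

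Of 11 genes tied to crossing axons or their guidance at the chiasm, 10 were tested and 5 were higher at E18. These were 50% of those tested, against 20.8% of all genes tested. None was lower and 5 did not pass (median log2 fold change 0.84). Isl2, which marks contralateral RGCs and restrains Zic2, stood at 162, 149.8 and 218 CPM at E18 and 83.8, 112 and 88.1 CPM at P5 (log2 fold change 0.90, adjusted p = 0.00314, edgeR quasi-likelihood test). The SoxC factors Sox4 (1.41), Sox11 (2.06) and Sox12 (1.39) and the semaphorin Sema6d (0.91) were also higher at E18 in log2 fold change, whereas the RGC factor Pou4f1 (0.15), the VEGF and semaphorin receptor Nrp1 (0.00), the plexin Plxna1 (0.10) and the adhesion molecule Nrcam (0.09) were not called. Of 13 genes of position along the retinal axes, 12 were tested and 4 were higher at E18 (33.3%, against 20.8% of all genes tested). They were Foxd1 with the dorsal factor Tbx3 (1.45) and the ventral guidance receptors Ephb2 (0.74) and Ephb3 (0.57). None of the 12 was lower, and the call of Ephb3 was lost without any library but E18 replicate 3 and P5 replicate 8.

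The start of Slc6a4 (Entrez 15567, chr11:76998603-77032340, plus strand, 14 exons) and that of Slc18a2 (Entrez 214084, chr19:59260896-59296012, plus strand, 16 exons) are printed because their products act in sequence on serotonin, the first at the cell surface and the second at the vesicle, and because Slc18a2 was called between the ages and Slc6a4 was not. The sequences are from RefSeq (GRCm38.p6, the assembly of mm10) and run from 150 bases before the start site annotated there to its first 10 bases, chr11:76998447-76998606 and chr19:59260728-59260887, both on the plus strand. These start sites lie before the gene starts given above, which are those of GENCODE. The Slc18a2 window ends before the GENCODE start of that gene. Capitals mark matches, on either strand, to CAGCTG, an E-box, to ACAAAG, the core bound by Sox factors, and to TGACGTCA, the cAMP response element.
Slc6a4: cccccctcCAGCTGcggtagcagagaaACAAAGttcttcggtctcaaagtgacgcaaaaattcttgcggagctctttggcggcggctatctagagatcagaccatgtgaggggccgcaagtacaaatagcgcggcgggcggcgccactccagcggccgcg
Slc18a2: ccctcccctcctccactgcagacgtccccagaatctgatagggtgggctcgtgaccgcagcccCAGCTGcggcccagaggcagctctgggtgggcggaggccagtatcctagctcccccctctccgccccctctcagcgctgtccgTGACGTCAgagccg
In the window from 250 bases before to 50 after the start, an E-box of these letters was found in 16.3% of 32851 mouse promoters, the Sox core in 18.7% and the cAMP response element in 1.79%. Slc6a4 held an E-box at −142 and the Sox core at −123 from the start site. Slc18a2 held an E-box at −87 and the cAMP response element at −4. The letters CAGCAGG, the core of the Zic binding motif, occurred in 10.5% of promoters and in none of the 7 members' promoters that could be searched, those of Zic1, Zic4, Zic5, Slc6a4, Slc18a2, Htr1b and Maoa. The motifs overlapped no other motif searched within these windows.

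Slc6a4 encodes the plasma membrane transporter that takes serotonin into the cell. Its level was 18.2, 21.1 and 21.7 CPM in E18 replicates 1, 3 and 4, from 1511, 2366 and 1966 counts, and 25.3, 21.3 and 14.5 CPM in P5 replicates 6, 8 and 9, from 2239, 2092 and 1367 counts. The P5 libraries held both the highest and the lowest value, and the E18 libraries lay between them. The means were equal to 3 digits, at 20.3 ± 1.87 CPM and 20.3 ± 5.42 CPM (SD, n = 3 each), with a log2 fold change of 0.00 ± 0.19 (SE) and an interval of −0.43 to 0.43 (adjusted p = 1.00, edgeR quasi-likelihood test). Leaving out single libraries gave −0.19, without P5 replicate 9, to 0.17, and in no fit was the gene called. At this spread between libraries, a change within that interval cannot be told from none.

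Slc18a2 encodes the vesicular monoamine transporter VMAT2, which loads monoamines into vesicles. Its level was 357, 390.3 and 449 CPM in E18 replicates 1, 3 and 4 and 325, 243 and 192 CPM in P5 replicates 6, 8 and 9, from 18054 to 43766 counts. All E18 libraries lay above all P5 libraries, with P5 replicate 6 nearest to them. The means were 399 ± 46.5 CPM and 253 ± 67.3 CPM (SD, n = 3 each). Slc18a2 was 1.57-fold higher at E18, with a log2 fold change of 0.65 ± 0.18 (SE) and an interval of 0.25 to 1.06 (adjusted p = 0.0185, edgeR quasi-likelihood test). Without E18 replicate 4 the log2 fold change was 0.56 and no longer passed (adjusted p = 0.0533, edgeR quasi-likelihood test). Without E18 replicates 1 and 3, which leaves only the E18 library where Slc18a2 was highest, it was 0.84. An antisense transcript, Gm29261, which has no row in the table, shares 111 of the 5225 annotated exon bases.

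Within a library, Slc18a2 exceeded Slc6a4 per kilobase 14.1-, 13.3- and 14.9-fold at E18 and 9.27-, 8.23- and 9.51-fold at P5. The ratio varied little among libraries of one age, with means of 14.1 ± 0.784 and 9.00 ± 0.683 (SD, n = 3 each), although both genes varied among the P5 libraries, highest in replicate 6 and lowest in replicate 9. The ages did not overlap (exact two-sided permutation test, p = 0.1, the smallest possible, 0.16 after adjustment over the 8 ratios).

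Maoa (Entrez 17161, chrX:16619698-16687818, plus strand, 15 exons) encodes the mitochondrial enzyme that oxidises serotonin and noradrenaline. Its level was 55.9, 59.2 and 60.9 CPM in E18 replicates 1, 3 and 4, from 4634, 6638 and 5514 counts, and 122, 86.7 and 119.9 CPM in P5 replicates 6, 8 and 9, from 10782, 8540 and 11280 counts. The E18 libraries were nearly equal and all lay below the P5 libraries. The means were 58.7 ± 2.56 CPM and 109 ± 19.7 CPM (SD, n = 3 each). Maoa was 1.87-fold higher at P5, with a log2 fold change of −0.90 ± 0.13 (SE) and an interval of −1.20 to −0.60 (adjusted p = 0.00138, edgeR quasi-likelihood test), and it passed the test under every setting tried.

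The ratio of Slc18a2 to Maoa per kilobase was 7.04, 7.26 and 8.12 at E18 and 2.95, 3.08 and 1.76 at P5, without overlap. The means were 7.47 ± 0.569 and 2.60 ± 0.726 (SD, n = 3 each; exact two-sided permutation test, p = 0.1, 0.16 after adjustment over the 8 ratios). Maob, the second monoamine oxidase, was also lower at E18, at 3.17, 2.93 and 3.38 CPM against 8.75, 5.83 and 7.62 CPM (log2 fold change −1.23 ± 0.19 SE, adjusted p = 0.00167, edgeR quasi-likelihood test). Maoa exceeded Maob per kilobase 10.2-, 11.7- and 10.4-fold at E18 and 8.04-, 8.61- and 9.10-fold at P5.

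**Figure D3:**
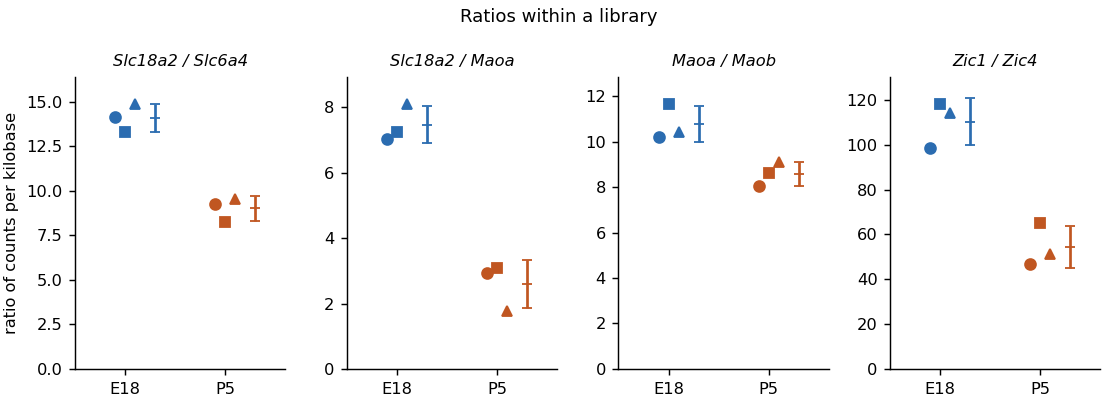
Ratios of counts per kilobase within each library for Slc18a2 over Slc6a4, Slc18a2 over Maoa, Maoa over Maob and Zic1 over Zic4, with E18 in blue, P5 in orange, a point for each library and the mean with its SD beside them. Each axis starts at 0, and in all 4 panels the 3 E18 libraries lie above the 3 P5 libraries, with mean ratios for Slc18a2 over Maoa of 7.47 and 2.60.

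Htr1b (Entrez 15551, chr9:81628291-81633828, minus strand, 1 exon) encodes a receptor that sits on RGC axon terminals and reduces transmitter release when serotonin binds. Its level was 11.0, 11.9 and 13.1 CPM in E18 replicates 1, 3 and 4, from 909, 1339 and 1183 counts, and 17.1, 15.0 and 21.1 CPM in P5 replicates 6, 8 and 9, from 1519, 1473 and 1987 counts. All E18 libraries lay below all P5 libraries by a narrow gap. The means were 11.99 ± 1.05 CPM and 17.7 ± 3.12 CPM (SD, n = 3 each). Htr1b was 1.48-fold higher at P5, with a log2 fold change of −0.57 ± 0.15 (SE) and an interval of −0.91 to −0.22 (adjusted p = 0.0163, edgeR quasi-likelihood test). The call was lost without E18 replicate 1 (−0.50, adjusted p = 0.0687) and without E18 replicate 3 (−0.56, adjusted p = 0.0590), as it was without both (−0.43, adjusted p = 0.346). An antisense gene, D430036J16Rik, shares 852 of the 4724 annotated exon bases and was itself lower at E18, with a log2 fold change of −0.53 (adjusted p = 0.00494, edgeR quasi-likelihood test). Without a stated strand setting, it is not known how reads from that overlap were counted.

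**Figure D4:**
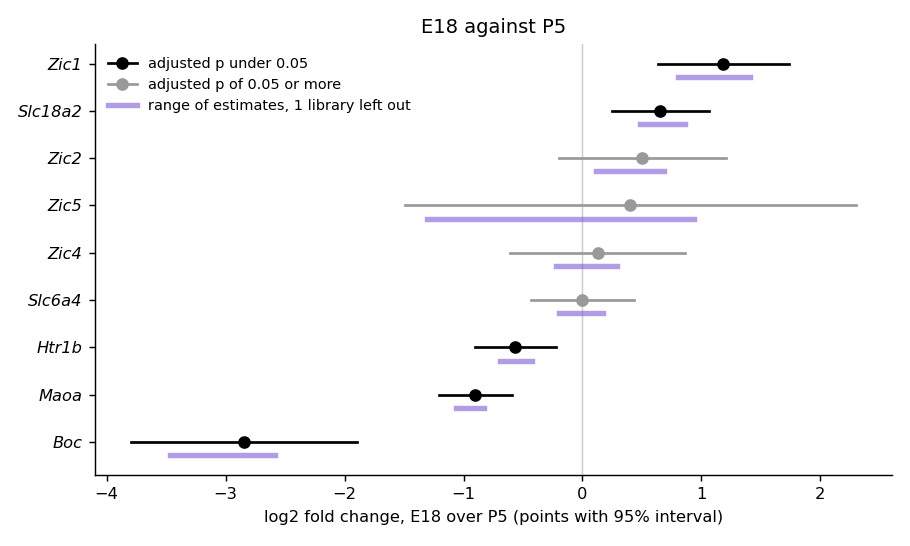
Log2 fold change, E18 over P5, of each of the 9 genes with its 95% interval (points and lines) and, below each, the range of estimates when 1 library was left out (bars), with genes that passed the test in black. Zic1 and Slc18a2 lie above 0 and Htr1b, Maoa and Boc below it, Slc6a4 lies at 0.00, and the bars of Zic4, Zic5 and Slc6a4 cross 0.

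Of the 13 other serotonin receptor genes, 11 were tested, of which 8 were lower at E18 (72.7%, against 22.5% of all genes tested). None was higher and 3 did not pass, with a median log2 fold change of −2.18 (0.00 for all genes tested). Htr1d, the receptor closest to Htr1b, was counted 191, 215 and 235 times at E18 and 1081, 1167 and 1714 times at P5 (log2 fold change −2.63 ± 0.21 SE, adjusted p = 0.000157, edgeR quasi-likelihood test). Htr2a, a receptor that couples to phospholipase C, was counted 210, 210 and 185 times at E18 and 901, 915 and 908 times at P5 (−2.18 ± 0.17 SE, adjusted p = 0.000138). The receptors Htr1a (−0.90), Htr2c (−2.52) and Htr7 (−2.26) were also lower at E18. Htr3a, a subunit of the serotonin-gated ion channel, had 1 count over the E18 libraries and 108 over the P5 libraries, a P5 to E18 ratio of 109.7 with a counting interval of 19.3 to 4373 that covers counting error only. Htr5a (−0.53) lost its call without E18 replicate 1 or 3 or P5 replicate 6 or 9, and Htr1f (−2.47) without any library but P5 replicate 8. Htr2b (0.68), Htr4 (0.74) and Htr5b (−0.46) were not called, although DESeq2 called Htr4 (adjusted p = 0.0329).

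Serotonin synthesis genes were low at both ages. Tph2, the neuronal tryptophan hydroxylase that starts serotonin synthesis, was counted 53, 74 and 69 times at E18 and 339, 224 and 301 times at P5 (log2 fold change −2.17 ± 0.25 SE, adjusted p = 0.000573, edgeR quasi-likelihood test). Ddc, the decarboxylase that completes it, was counted 64, 70 and 56 times at E18 and 246, 122 and 215 times at P5 (−1.64, adjusted p = 0.00459). The organic cation transporter Slc22a3 had 0, 5 and 1 counts at E18 and 50, 18 and 60 at P5 and was called lower at E18 (adjusted p = 0.00305, edgeR quasi-likelihood test). Slc18a1, the other vesicular monoamine transporter, was higher at E18 like Slc18a2, at 3.12, 2.86 and 2.25 CPM against 1.55, 1.51 and 1.66 CPM (0.80 ± 0.21 SE, adjusted p = 0.0151), and its call was lost without E18 replicate 1 or 3 (adjusted p = 0.0560 and 0.0633). Slc29a4, a low-affinity monoamine carrier, stood at 43.2 to 58.9 CPM at E18 and 56.7 to 65.8 CPM at P5 and was not called (−0.21). In all, 9 of 11 such genes were tested, of which 1 was higher at E18 (11.1%, against 20.8% of all genes tested). Of the 9, 4 were lower (44.4%, against 22.5%) and 4 did not pass, with a median of −0.21.

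Genes that define serotonergic neurons were near 0 apart from Tph2. Fev, a factor of these neurons, had 0 or 1 counts at E18 and 1 to 8 at P5, Lmx1b had 2 to 12 counts, Gata2 up to 6 and Gata3 up to 4. Of the catecholamine genes, Th, the enzyme of dopaminergic amacrine cells, was counted 112, 162 and 67 times at E18 and 82, 66 and 68 times at P5, Slc6a3, the dopamine transporter, 16 to 33 times, and Dbh 0 to 2 times. None of the 4 catecholamine genes tested was called. Of 9 platelet and red blood cell genes, listed because platelets carry the serotonin transporter, 5 had no count in any library, Pf4 and Ppbp among them, and 2 had up to 3 counts in a library. The platelet integrin gene Itga2b had 283 to 364 counts in every library, with a log2 fold change of −0.07. Alas2, an enzyme of haem synthesis, was at 1.58 to 1.81 CPM at E18 and 0.654 to 1.26 CPM at P5, without overlap, and was not called (0.72, adjusted p = 0.0732, edgeR quasi-likelihood test).

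Marker sums of other cells are given here beside these calls. Summed levels of 5 bipolar cell genes were 43.3 to 48.7 CPM at E18 and 68.8 to 96.3 CPM at P5, in the direction of Maoa, Boc, Htr1b and the receptors, and this sum was mostly Prkca. Of the 5, Prkca (log2 fold change −0.89) and Trpm1 (−0.82, 2.19 to 2.90 CPM at E18 and 3.88 to 5.13 CPM at P5) were called lower at E18, Cabp5 (1.29) was not called, and Vsx1 and Grm6, at up to 0.0532 and 0.0362 CPM in a library, were too low to be tested. Those of 5 horizontal cell genes were 65.1 to 112 CPM at E18 and 41.5 to 47.0 CPM at P5, in the direction of Zic1 and Slc18a2. The largest part of this sum was Onecut2 (1.21), which was called higher at E18, as was Prox1 (2.43). Calb1 (0.41) and Onecut1 (0.43) were not called, and Lhx1 was too low to be tested. Summed endothelial and pericyte genes (9) were at 15.5 to 71.9 CPM at E18 and 11.1 to 15.6 CPM at P5 and overlapped. Of the 7 tested, Rgs5, a pericyte gene with 8 to 12 counts at E18 and 145 to 290 at P5 (−4.36), and Pecam1 (−1.81) were lower at E18, in the direction of Maoa, Boc, Htr1b and the receptors, and Kdr (2.68) was higher. The 4 others tested, Cldn5 (0.52), Flt1 (−0.21), Pdgfrb (1.05) and Cspg4 (−0.17), were not called. Cdh5 and Tie1 were too low to be tested. Summed genes of Müller glia and astrocytes (10) were at 443 to 528 CPM at E18 and 482 to 518 CPM at P5, and of the 8 tested Clu (−1.19) and Dkk3 (−0.59) were lower at E18 and Glul (0.35) and Sox9 (2.32) were higher. The amacrine sum, most of it Pax6, which RGCs share, was 638 to 959 CPM at E18 and 528 to 653 CPM at P5, and overlapped. The part of these cells in the results was not tested.

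**Figure D5:**
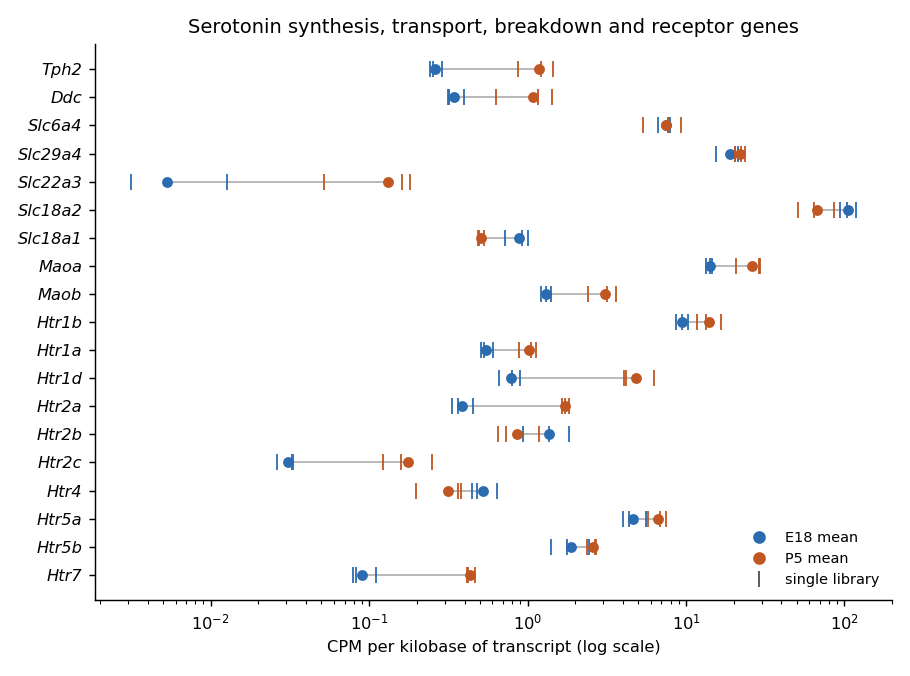
Mean level at E18 (blue) and P5 (orange) of serotonin synthesis, carrier, breakdown and receptor genes, in CPM per kilobase of transcript on a log scale, with a tick for each library (a library with no count of Slc22a3 has no tick). Slc18a2 is highest at both ages (105 and 66.9), Slc6a4 has the same mean at both ages (7.47), and Tph2, Ddc, Htr1d, Htr2a, Htr2c and Htr7 are higher at P5.

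On the scale of CPM per kilobase of the annotated transcript that matches the table's RefSeq accession, Slc18a2 was the most abundant of the 9 genes at both ages, with a mean of 105 ± 12.3 in E18 libraries and 66.9 ± 17.8 in P5 libraries (SD, n = 3 each). At E18 it was followed by Zic1 (29.1 ± 12.1), Maoa (14.1 ± 0.615), Htr1b (9.42 ± 0.828), Slc6a4 (7.47 ± 0.686), Zic2 (2.04 ± 0.852), Zic4 (0.262 ± 0.0979), Boc (0.0928 ± 0.0582) and Zic5 (0.0447 ± 0.0561). Of these neighbours only Boc and Zic5 had ranges that overlapped. At P5 the order was Slc18a2, Maoa (26.3 ± 4.72), Htr1b (13.9 ± 2.45), Zic1 (12.8 ± 0.664), Slc6a4 (7.47 ± 1.99), Zic2 (1.44 ± 0.345), Boc (0.663 ± 0.189), Zic4 (0.240 ± 0.0315) and Zic5 (0.0329 ± 0.00228), and only Htr1b and Zic1 overlapped. The order depended in places on the gene model. With all annotated exons as the length, Htr1b fell to 2.54 and 3.76 at E18 and P5, below Slc6a4 at 4.49 at both ages, Zic1 came to 14.4 beside Maoa at 14.1 at E18, and Zic4 fell to 0.0642 and 0.0588, below Boc.

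The genes whose pattern over the 6 libraries was most like that of Zic2 and of Slc6a4 were found by the root mean square difference of centred log2(CPM + 0.5) among the 13419 other genes that averaged 1 CPM or more. For Zic2 they were Rrm2 (0.127), a subunit of the enzyme that makes deoxynucleotides for DNA replication, Smc4 (0.128), a condensin subunit, and Mpzl1 (0.130), a membrane glycoprotein, where the median gene differed by 0.452. Rrm2, itself one of the dividing cell genes, was highest in E18 replicate 1, at 14.1 CPM, as Zic2 was. The sum of the dividing cell genes fell more steeply over E18 replicates 1, 3 and 4 (350.2, 143 and 89.6 CPM) than Zic2 did (7.37, 3.92 and 3.62 CPM). The part of dividing cells in the Zic2 level was not tested. For Slc6a4 they were 4930405A21Rik (0.0877), Grm3 (0.0935), a metabotropic glutamate receptor, and Acvr1c (0.0980), an activin receptor, where the median gene differed by 0.330. Grm3 stood at 47.6, 49.3 and 47.9 CPM at E18 and 62.9, 56.2 and 37.8 CPM at P5, highest in P5 replicate 6 and lowest in P5 replicate 9, as Slc6a4 was.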

How the data were processed

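RNA from 6 RGC preparations was depleted of ribosomal RNA (the labels name polyA RNA), sequenced by the authors in pairs of 100-base reads, aligned to mm10 with STAR 2.4.0 and counted on RefSeq genes with HT-seq 0.6.1. The submitters' processing notes also name CASAVA 1.8.2. The deposited raw counts per gene were tested here. The table also holds normalized counts, a signal that the authors scaled by TMM in EdgeR. Its log2 fold changes and its p-values, raw and corrected, belong to a comparison that the authors deposited with it. None of these was used, nor was a further deposited column, a rank score. Whether the counting used strand was not given in the sources used here, so overlapping antisense genes are uncertain. E18 replicate 1 has the numbers 2 and 5 as well in its column name, and whether it pools preparations is not given.

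The members, lists and tests were chosen with earlier results of these data known. After TMM scaling, counts entered the quasi-likelihood model of edgeR 4.0.16 (R 4.3.3) on the 16449 genes that filterByExpr kept, with Benjamini-Hochberg adjustment over all of them and a threshold of 0.05. Standard errors and 95% intervals are those of the fitted model, and the steps were tested on simulated data. Replicates of one age differed by chi-square values of 30.5 to 141 per degree of freedom, so the spread between libraries and not the depth of 81213639 to 114512853 counts sets the precision. Ratios within a library were compared by exact two-sided permutation tests. Gene models are those of GENCODE M21 on mm10, and promoters those of RefSeq. Levels per kilobase use the GENCODE transcript that matches the RefSeq accession in the table.

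The genes named are every member, the genes of the fixed pathway lists that passed the test or bear on a member, cell type markers that move with a member, and the 3 genes most like Zic2 and Slc6a4. The values of some single genes of these lists were left out. Alternatives were DESeq2 1.42.0, the exact and likelihood ratio tests of edgeR, upper-quartile and RLE scaling, 2 other filters on low counts and the omission of each library. The omission of E18 replicates 1 and 3 together was added after the data were seen.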

Additional observations from a re-analysis of the deposited data

How the results depend on the processing

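The same number of the 9 genes, 5, was called by DESeq2, by edgeR's exact and likelihood ratio tests, with upper-quartile and RLE scaling and with both other filters on low counts, and all 5 were shared with the calls reported. Over the same settings 6331 to 7652 genes were called in all. Leaving out 1 library at a time gave 4575, without E18 replicate 3, to 8796 genes and 4 to 5 of the 9. Those lost were Htr1b (range −0.69 to −0.42) without E18 replicate 1 or 3 and Slc18a2 (0.49 to 0.86) without E18 replicate 4. Zic1 (0.80 to 1.40), Maoa (−1.06 to −0.83) and Boc (−3.47 to −2.58) passed in all 6 such fits. Among the uncalled genes followed, log2 fold changes that turned sign in some of these fits were those of Zic4 (−0.22 to 0.29), Zic5 (−1.31 to 0.94), Slc6a4 (−0.19 to 0.17), Nrp1 (−0.10 to 0.10), Shh (−0.0987 to 0.0627) and Hhip (−0.76 to 0.30). Requiring at least 1 CPM in 3 samples turned Slc6a4 to −0.0084 and Nrp1 to −0.0050 and left no value for Zic4 and Zic5. Without E18 replicates 1 and 3 together, a setting chosen after the data were seen, 1633 genes and 3 of the 9 were called and Zic5 was at −2.74, with fewer samples by construction. The pathway genes followed through these settings were all those called and some of the uncalled. Among them, 35 calls were lost over all planned settings and 5 gained. The gains were those of Pou4f1 and Htr2b without P5 replicate 8, Htr5b and Th without E18 replicate 4 and Htr4 with DESeq2. Gains in the other uncalled pathway genes were not examined. No paired analysis was possible because the ages share no replicate number.

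With 3 libraries an age, the permutation tests of ratios cannot give a p under 0.1. The intervals of Zic2, Zic4, Zic5 and Slc6a4 span 0, and Zic4, Zic5 and Boc rest on few counts in some libraries, down to 2 for Zic5.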
